A study of Mus musculus with 5 samples.

Results

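Glucose production and fructose handling were followed through 7 genes: Pcx, Pck1, Fbp1 and G6pc of gluconeogenesis, Khk and Tkfc of fructose breakdown, and the transcriptional coactivator Ppargc1a. The genes were chosen by name for their roles, with earlier results of these data known. All 7 were found among the 22042 genes of the bulk RNA-Seq table. The table holds 12 libraries from the small intestine epithelium of C57Bl/6J mice, 6 to 8 weeks old, that carried Cck-Cre together with the R26-LSL-tdTomato reporter. TdTomato+ cells (CCK+) and tdTomato- cells (CCK-) were sorted, and each library stands for 1 mouse and 1 population. A CCK+ and a CCK- library that share a letter were taken to come from the same mouse, which no source used here states, giving 6 mice, A to F. Mice A, B and F had been fasted overnight, and mice C, D and E had been fasted and then given Ensure, a liquid meal (refed), which gives 4 groups of 3 libraries. All groups, the CCK- cells included, carried the same genotype, and no untreated mice fed freely are among these libraries. The reporter marks every cell whose lineage has used the Cck promoter, whether or not the cell still makes Cck, and the CCK- population is the rest of the sorted epithelium rather than a single cell type.

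Gluconeogenesis makes glucose from lactate, amino acids and glycerol, and it runs mainly in the liver and kidney, with the small intestine named as a further site. Pyruvate carboxylase (Pcx) makes oxaloacetate from pyruvate, phosphoenolpyruvate carboxykinase (Pck1) turns oxaloacetate into phosphoenolpyruvate, fructose-1,6-bisphosphatase (Fbp1) bypasses the irreversible step of phosphofructokinase, and glucose-6-phosphatase (G6pc) releases free glucose. Dietary fructose enters the same triose pool: ketohexokinase (Khk) phosphorylates it, the product is split, and triokinase (Tkfc) phosphorylates the glyceraldehyde. Enterocytes of the small intestine are known to carry out these steps on absorbed fructose, and Ppargc1a is best known as a coactivator of fasting and mitochondrial genes.

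The values are normalized counts, that is, estimated reads per gene divided by the authors' normalization factors, and they are not corrected for gene length, so that levels were compared between libraries and not between genes. Each library summed to 7061155 to 11371114 normalized counts with 16656 to 18855 genes above 0. The labels were checked with Cck, at 14837 to 32592 normalized counts in the CCK+ libraries and 27.6 to 86.0 in the CCK- libraries, and all 9 EEC (enteroendocrine cell) markers were higher in CCK+ cells, with a median log2 difference of 7.38. The CCK+ libraries also held RNA of enterocyte markers. The 7 enterocyte markers (Alpi, Fabp1, Fabp2, Apoa1, Apoa4, Sis and Slc5a1) summed to 190960 to 325980 normalized counts in fasted and 129550 to 212820 in refed CCK+ libraries, against 365540 to 507990 and 351140 to 397850 in the CCK- libraries, and none of the 7 was at 0 in any library. The CCK+ library of mouse B stood apart, with the highest enterocyte sum and the lowest sum of EEC markers (99709 normalized counts, against up to 215910 in the other fasted mice) among the CCK+ libraries. Values of the 7 genes without mouse B are given where a call, a sign or the size of a refed response changed. In sorted populations, fewer cells of a type and less RNA per cell cannot be told apart.

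The first question was how the 7 genes differed between refed and fasted mice. Pck1 was called lower in both populations, Ppargc1a was called lower in CCK+ cells, and none of the 7 genes was called higher. A gene was called where the Benjamini-Hochberg adjusted p of limma's moderated test over all 22042 genes was under 0.05. Separation of refed from fasted libraries is described gene by gene below, with 3 libraries a group. The share of all genes that separate in this way was not computed. In CCK+ cells 2 of the 7 genes were called, both lower in refed mice. Over the whole table the share called in this comparison was 2.55%, with 1.31% higher and 1.23% lower. Higher genes made up 51.5% of these calls, and 77.4% when libraries were rescaled to equal sums. In CCK- cells 1 of the 7 was called, also lower, and over the whole table the share was 1.23%, with 0.708% higher and 0.526% lower. The median log2 fold change of the 7 genes was -0.21 in CCK+ and 0.43 in CCK- cells, beside 0.008 and 0 over all genes. Markers of crypt cells moved with the state as well: the 4 markers Olfm4, Lgr5, Mki67 and Top2a, of which 1 was called higher in CCK+ and 2 in CCK- cells, summed to 1269 to 2585 normalized counts in fasted and 2516 to 3469 in refed CCK+ libraries, and to 716 to 1139 and 1580 to 2149 in CCK- libraries. Their part in the refed results was not tested.

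Pck1 (ENSMUSG00000027513), the enzyme generally taken as the control point of gluconeogenesis, had the largest response of the 7. In CCK+ cells it stood at 3913, 8361 and 5351 normalized counts in fasted mice A, B and F, and at 991, 554 and 301 in refed mice C, D and E. In CCK- cells it stood at 9570, 11974 and 10572 in fasted mice and at 1995, 2143 and 1128 in refed mice. Fasted and refed libraries did not overlap in either population, and every refed library lay below every fasted one. On average Pck1 was 10.2-fold lower in refed than in fasted CCK+ cells (95% confidence interval 5.85 to 17.7, log2 fold change -3.35, SE 0.372, limma adjusted p = 0.00172). In CCK- cells it was 6.31-fold lower (3.63 to 11.0, log2 fold change -2.66, SE 0.372, limma adjusted p = 0.0028). By size this was the 4th largest of the 272 falls called in CCK+ cells and the 7th of the 116 called in CCK- cells. The fall in CCK+ cells was called in each of the 12 fits that left out 1 library (adjusted p between 0.00533 and 0.0283) and without mouse B (adjusted p = 0.0437), but not when the 6 CCK+ libraries were fitted alone (adjusted p = 0.11). In CCK- cells the log2 fold change was -2.57 without mouse B and was no longer called (adjusted p = 0.0634), nor was it in a fit of the 6 CCK- libraries alone (adjusted p = 0.0643).

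**Figure D1:**
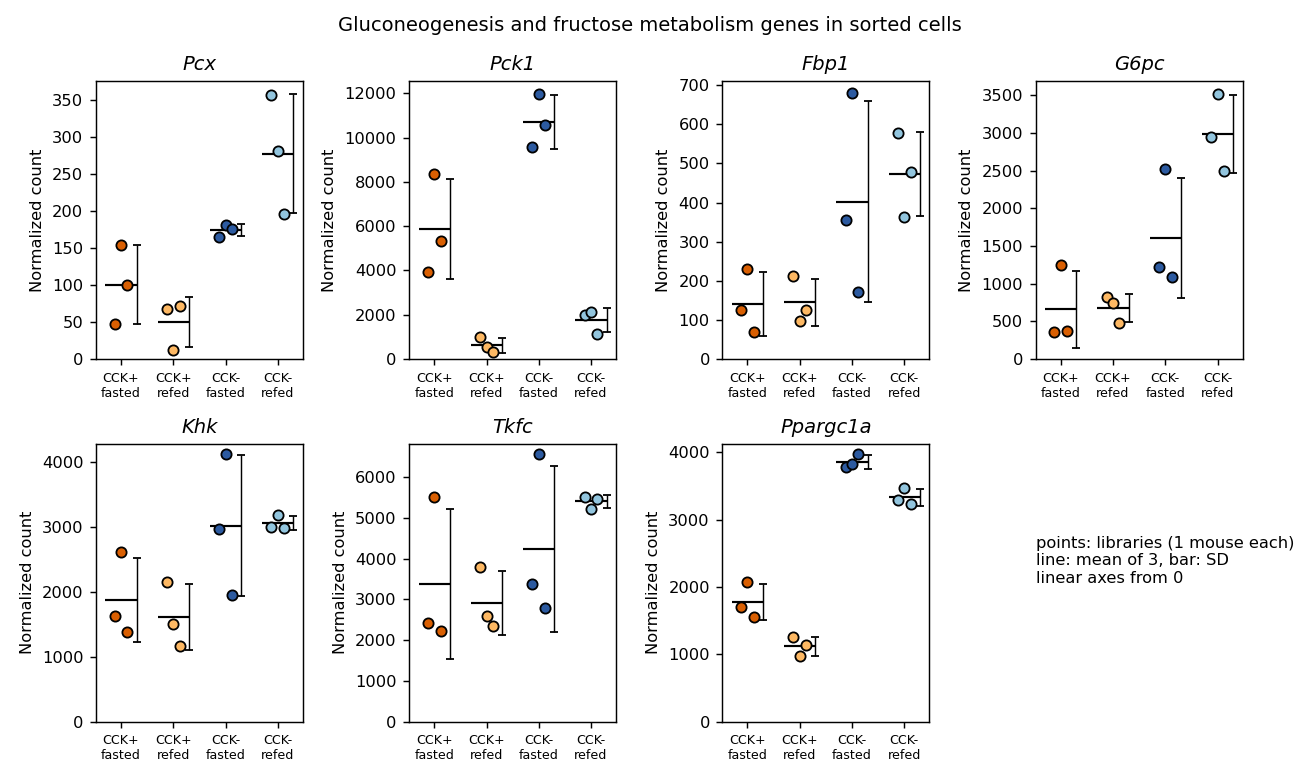
Normalized counts (vertical axes, linear from 0) of the 7 genes in every library of the 4 groups on the horizontal axes; points are libraries, lines are means of 3 and bars are SD. For Pck1 the refed points sit below all fasted points in both populations, whereas for G6pc the refed CCK- points sit high and the fasted and refed CCK+ points overlap.

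G6pc (ENSMUSG00000078650), which catalyzes the last step of glucose release, was not called with refeeding in either population. In CCK+ cells it stood at 364, 1246 and 367 normalized counts in fasted mice A, B and F, and at 817, 743 and 474 in refed mice C, D and E. In CCK- cells the values were 1216, 2527 and 1083 in fasted mice and 2945, 3519 and 2490 in refed mice. In CCK+ cells the fasted library of mouse B was the highest of the 6, and the groups overlapped. In CCK- cells the refed libraries were higher than those of mice A and F, but the fasted library of mouse B (2527) lay just above the lowest refed one (2490). The log2 fold change was 0.26 (95% confidence interval -0.63 to 1.16, limma adjusted p = 0.807) in CCK+ cells and 0.98 (0.09 to 1.88, limma adjusted p = 0.358) in CCK- cells, neither of them called. Without mouse B the values were 0.85 (adjusted p = 0.145) in CCK+ and 1.36 (adjusted p = 0.0601) in CCK- cells.

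Within a library, the ratio of the 2 genes does not depend on the scaling between libraries. The log2 ratio of G6pc to Pck1 normalized counts was -3.42, -2.75 and -3.86 in the fasted CCK+ libraries and -0.28, 0.42 and 0.65 in the refed ones. In CCK- cells it was -2.98, -2.24 and -3.29 in fasted and 0.56, 0.72 and 1.14 in refed libraries. The ratio was thus higher in every refed than in every fasted library, and its mean differed by 3.61 in CCK+ and 3.64 in CCK- cells on the log2 scale. The ratio restates the values above and most of its shift is the fall of Pck1, so that it would separate the states even with G6pc level. It was chosen after the values had been seen and was not tested, and since the counts are not per length only its difference between groups can be read.

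The promoters of these genes are shown because Pck1, G6pc and Ppargc1a are textbook targets of fasting and feeding signals. RefSeq promoter windows, from 250 bases before to 50 bases after the transcription start on GRCm38.p6, were at hand for 7 of 7 genes (8 windows, of which 2 belong to Pcx). The windows were searched on both strands for the CREB site TGACGTCA, its half-site TGACG (also held within the full site), the forkhead motif GTAAACA and the E-box CACGTG. Capitals mark a match, here CGTCA, which is TGACG read on the other strand. The Pck1 window is chr2:173152823-173153122 (+ strand), that of G6pc is chr11:101367466-101367765 (+ strand) and that of Ppargc1a is chr5:51567676-51567975 (- strand).
Pck1: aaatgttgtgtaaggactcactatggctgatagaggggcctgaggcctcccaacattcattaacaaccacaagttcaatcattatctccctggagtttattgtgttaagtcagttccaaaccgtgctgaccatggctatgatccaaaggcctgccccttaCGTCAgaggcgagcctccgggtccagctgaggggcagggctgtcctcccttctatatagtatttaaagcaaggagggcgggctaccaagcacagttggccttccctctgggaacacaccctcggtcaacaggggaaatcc
G6pc: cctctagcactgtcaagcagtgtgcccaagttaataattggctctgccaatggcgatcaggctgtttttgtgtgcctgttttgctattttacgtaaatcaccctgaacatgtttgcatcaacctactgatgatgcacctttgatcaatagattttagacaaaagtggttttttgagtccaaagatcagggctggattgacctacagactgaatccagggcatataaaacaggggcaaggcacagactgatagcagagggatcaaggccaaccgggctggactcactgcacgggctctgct
Ppargc1a: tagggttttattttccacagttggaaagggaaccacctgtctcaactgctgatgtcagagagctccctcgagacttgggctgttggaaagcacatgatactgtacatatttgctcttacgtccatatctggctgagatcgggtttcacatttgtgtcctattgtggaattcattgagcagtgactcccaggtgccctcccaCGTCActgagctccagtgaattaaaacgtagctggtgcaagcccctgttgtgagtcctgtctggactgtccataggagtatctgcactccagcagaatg
TGACG was matched at positions -90 to -86 of Pck1, -49 to -45 of Ppargc1a and -74 to -70 of Khk, counted from the start. CACGTG was matched at -71 to -66 of Khk, where it overlaps the TGACG match, and at -248 to -243 of 1 of the Pcx windows. No match was found in the windows of G6pc, Fbp1 and Tkfc. Among all 32851 RefSeq promoter windows, 20.8% held TGACG, 1.79% TGACGTCA, 3.65% GTAAACA and 7.15% CACGTG, and a match is only a description of the letters.

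Ppargc1a (ENSMUSG00000029167), the coactivator, varied little among replicates, with a coefficient of variation of 2.71 to 15.0% over the 4 groups. In CCK+ cells it stood at 1704, 2075 and 1556 normalized counts in fasted mice A, B and F, and at 1251, 976 and 1137 in refed mice C, D and E. In CCK- cells it stood at 3776, 3826 and 3978 in fasted and at 3290, 3466 and 3235 in refed mice. Every refed library lay below every fasted library of its population, with a wider gap in relative terms in CCK+ cells. In CCK+ cells Ppargc1a was 1.58-fold lower in refed mice (95% confidence interval 1.27 to 1.97, log2 fold change -0.66, SE 0.146, limma adjusted p = 0.0283), which ranked 262nd by size among the 272 falls called. In CCK- cells the log2 fold change was -0.21 (-0.53 to 0.10, limma adjusted p = 0.653). The call in CCK+ cells was lost without mouse B (log2 fold change -0.55, adjusted p = 0.0957). Leaving out 1 library lost it without the CCK+ library of mouse B (adjusted p = 0.0851), D (0.105) or E (0.0842), or the CCK- library of mouse D (0.0514). Enterocyte markers did not all move alike: their median log2 fold change in CCK+ cells was -0.49, and 1 of the 7, Slc5a1, was called lower (-1.02). Alpi and Apoa1 were each at -1.03, Apoa4 at -0.49 and Fabp2 at -0.22, whereas Sis was at 0.01 and Fabp1 at 0.32. A further scale, chosen after the data were seen, took each library relative to its 7 enterocyte markers. On it Ppargc1a differed by -0.17 (limma adjusted p = 0.668), and Pck1 was lower by 2.85 on the log2 scale (adjusted p = 6.56e-05). Of these markers, Apoa1 and Slc5a1 were lower in all refed libraries of both populations, and Fabp1 was higher in all refed CCK- libraries. Enterocyte content and a feeding response cannot be told apart on this scale, and their parts were not tested.

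**Figure D2:**
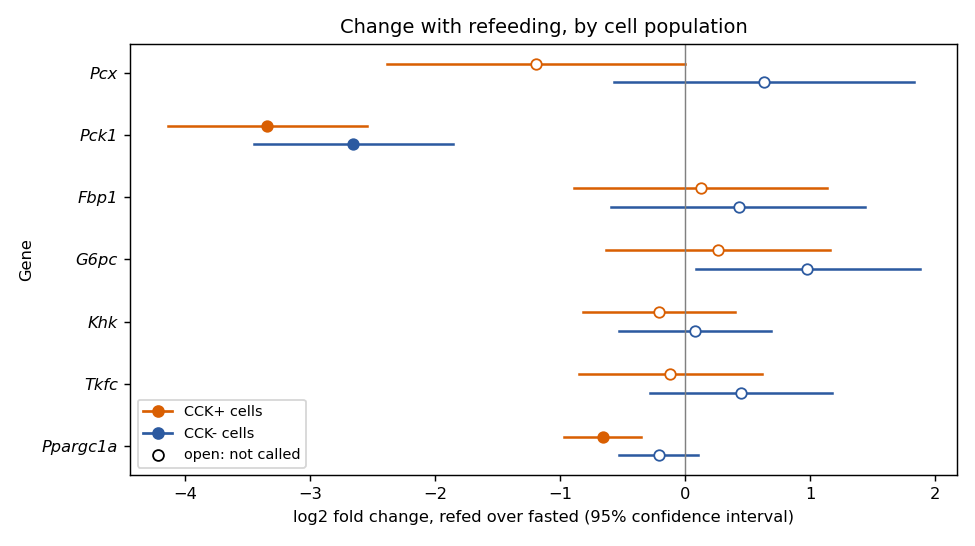
The log2 fold change of refed over fasted mice (horizontal axis) for the 7 genes (vertical axis) in CCK+ and CCK- cells, with 95% confidence intervals as lines and called genes as filled circles. Pck1 is filled in both populations at -3.35 and -2.66, Ppargc1a only in CCK+ cells at -0.66, and all other circles are open.

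Pcx and Fbp1, the other gluconeogenic enzymes, were not called with refeeding. Pcx (ENSMUSG00000024892) stood at 46.8, 153 and 100 normalized counts in fasted and 67.8, 11.6 and 71.0 in refed CCK+ libraries. In CCK- cells it stood at 165, 181 and 175 in fasted and 356, 280 and 195 in refed libraries. In CCK+ cells the groups overlapped and the refed library of mouse D was the lowest, while in CCK- cells all 3 refed libraries were above all 3 fasted ones. The log2 fold change was -1.19 (95% confidence interval -2.39 to 0.00, limma adjusted p = 0.297) in CCK+ cells, or -0.37 without the CCK+ library of mouse D, and 0.63 (-0.57 to 1.83, adjusted p = 0.762) in CCK- cells. Fbp1 (ENSMUSG00000069805) stood at 126, 230 and 68.6 in fasted and 212, 97.6 and 125 in refed CCK+ libraries, and at 356, 680 and 171 in fasted and 577, 364 and 479 in refed CCK- libraries. Its groups overlapped in both populations, with log2 fold changes of 0.13 (-0.89 to 1.14, limma adjusted p = 0.939) and 0.43 (-0.59 to 1.44, adjusted p = 0.832). Without mouse B these were 0.56 (adjusted p = 0.607) and 0.91 (adjusted p = 0.486), again not called, and Pcx was at -0.81 in CCK+ cells (adjusted p = 0.645).

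Khk and Tkfc, which begin and complete the conversion of fructose to trioses, were not called with refeeding in either population. Khk (ENSMUSG00000029162) stood at 1630, 2609 and 1377 normalized counts in fasted and 2160, 1513 and 1161 in refed CCK+ libraries, and at 2973, 4133 and 1960 in fasted and 2999, 3180 and 2992 in refed CCK- libraries. Tkfc (ENSMUSG00000034371) stood at 2416, 5507 and 2217 in fasted and 3808, 2589 and 2351 in refed CCK+ libraries, and at 3388, 6570 and 2783 in fasted and 5526, 5223 and 5475 in refed CCK- libraries. For both genes the fasted libraries of mouse B were the highest of all in their population, and the 3 refed CCK- libraries lay close together within the fasted range. The coefficient of variation of Tkfc was 47.9% among fasted and 3.01% among refed CCK- libraries, and that of Khk was 36.0% and 3.47%. The log2 fold change of Khk was -0.21 (95% confidence interval -0.82 to 0.40, limma adjusted p = 0.771) in CCK+ and 0.08 (-0.53 to 0.69, adjusted p = 1.0) in CCK- cells. That of Tkfc was -0.12 (-0.85 to 0.62, limma adjusted p = 0.913) and 0.45 (-0.28 to 1.18, adjusted p = 0.696). These intervals leave room for changes in either direction. In CCK+ cells the sign turned without mouse B (0.06 for Khk and 0.30 for Tkfc), and also when libraries were rescaled to equal sums (0.02 and 0.11). In CCK- cells the values without mouse B were 0.34 for Khk (adjusted p = 0.712) and 0.82 for Tkfc (adjusted p = 0.136).

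The second question was how the genes differed between CCK+ and CCK- cells. All 7 were lower in CCK+ cells in each of the 6 mice, and 6 of the 7 were called, all of them lower. Among all genes the share called was 33.7%, with 19.6% higher and 14.1% lower. Higher genes made up 58.2% of these calls, and 84.1% with libraries rescaled to equal sums, which moved the median of all genes by 0.256. The median log2 difference of the 7 genes was -1.35, beside 0.09 over all genes and -1.18 over the 7 enterocyte markers, of which 5 were called lower. The difference (CCK+ over CCK-, both states averaged) was -1.86 for Pcx (SE 0.395, limma adjusted p = 0.00199), -1.80 for G6pc (SE 0.296, adjusted p = 0.000254) and -1.60 for Fbp1 (SE 0.336, adjusted p = 0.00179). It was -1.35 for Ppargc1a (SE 0.103, limma adjusted p = 2.23e-07), -1.27 for Pck1 (SE 0.263, adjusted p = 0.00158) and -0.82 for Khk (SE 0.202, adjusted p = 0.00529). The call of Khk was lost with libraries rescaled to equal sums (-0.43, adjusted p = 0.0927). In linear terms these run from 3.62-fold lower for Pcx to 1.77-fold lower for Khk. With 1 library left out the log2 difference ran from -2.07 to -1.44 for Pcx and from -2.09 to -1.61 for G6pc, and these ranges overlap. CCK+ and CCK- libraries did not overlap for Pcx and Ppargc1a, whereas for the other 5 genes they did. Nor did they overlap for the enterocyte markers Fabp1, Fabp2, Sis and Slc5a1, whereas for Alpi, Apoa1 and Apoa4 they did. The shares of all genes without overlap, or lower in every mouse, were not computed. Tkfc was 1.56-fold lower (95% confidence interval 1.09 to 2.23, log2 difference -0.64, SE 0.242) and was not called (limma adjusted p = 0.055). With the mouse as a block, which pairs the CCK+ and CCK- library of each animal, its adjusted p was 0.000911 at the same difference.

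Within single mice the log2 difference between CCK+ and CCK- cells ranged from -2.39 to -1.02 for G6pc, from -1.93 to -1.30 for Fbp1 and from -1.83 to -0.88 for Ppargc1a. It ranged from -4.48 to -0.24 for Pcx, from -1.95 to -0.52 for Pck1, from -1.36 to -0.47 for Khk and from -1.22 to -0.25 for Tkfc. For Pcx, Pck1, G6pc, Tkfc and Ppargc1a the difference nearest to 0 was that of mouse B. Among enterocyte markers the corresponding ranges were -2.10 to -1.24 for Fabp2, -2.03 to -1.02 for Slc5a1, -1.80 to -1.29 for Sis, -1.62 to -0.98 for Fabp1 and -1.38 to -0.28 for Alpi. The apolipoprotein markers lay nearer 0, at -1.01 to 0.12 for Apoa4, below 0 in 5 of 6 mice, and at -0.92 to 0.16 for Apoa1, below 0 in 4 of 6. With each library taken relative to its enterocyte markers, an alternative chosen after seeing the data, G6pc was still called lower in CCK+ cells (log2 difference -0.71, adjusted p = 0.00765). Pck1 (-0.19, adjusted p = 0.336), Ppargc1a (-0.27, 0.122), Fbp1 (-0.52, 0.107) and Pcx (-0.77, 0.0677) were no longer called. Khk (0.26, adjusted p = 0.127) and Tkfc (0.45, adjusted p = 0.0268) turned to higher, and Tkfc was called. The part of enterocyte RNA in the CCK+ libraries in these differences was not tested further.

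**Figure D3:**
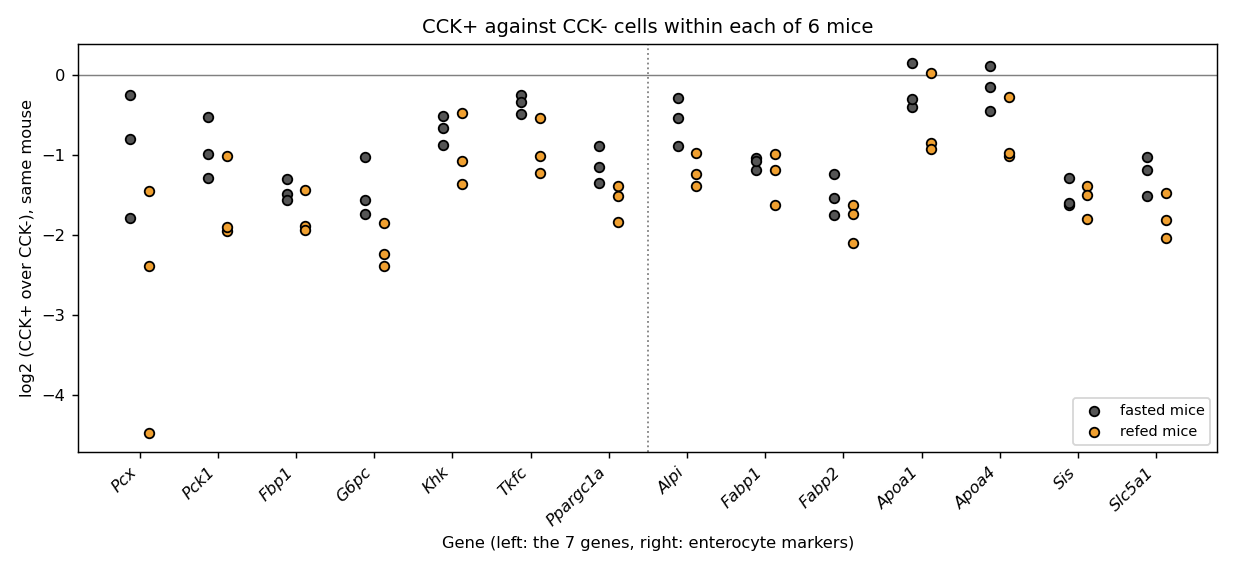
The log2 difference between the CCK+ and the CCK- library of the same mouse (vertical axis) for the 7 genes and the 7 enterocyte markers (horizontal axis), with 1 point per mouse, colored by state. All points of the 7 genes lie below 0, at -4.48 to -0.24, and those of the enterocyte markers lie at -2.10 to 0.16, with a few points of Apoa1 and Apoa4 above 0.

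Split by state, the contrast of CCK+ with CCK- cells was larger in refed than in fasted mice for all 7 genes, but this was not a called difference. In fasted mice the log2 difference was -0.93 for Pck1 (limma adjusted p = 0.105), -0.94 for Pcx (0.291) and -0.68 for Khk (0.125), none of which was called, and G6pc, Fbp1 and Ppargc1a were called (-1.44, -1.45 and -1.13). In refed mice the corresponding values were -1.62 for Pck1, -2.77 for Pcx, -0.97 for Khk, -2.16 for G6pc, -1.75 for Fbp1 and -1.58 for Ppargc1a, all called, while Tkfc was at -0.92 (adjusted p = 0.0619). The test of this difference, the refed response in CCK+ cells minus that in CCK- cells, called 0 of the 7 genes, with limma adjusted p between 0.775 and 0.934, and 0.00454% of all genes. At an unadjusted p under 0.05 it passed for 2 of the 7, Pcx (log2 difference of responses -1.82, 95% confidence interval -3.51 to -0.13) and Ppargc1a (-0.45, -0.89 to -0.01). Over all 22042 genes 1378 passed at that cutoff. With 1 library left out the Pcx value ran from -2.28 to -1. Its lowest library was the CCK+ one of refed mouse D, at 11.6 normalized counts. For Pck1 the responses differed by -0.69 (-1.82 to 0.44). The markers were not level either. For the 7 enterocyte markers the difference of responses ran from -0.62 to -0.06, with a median of -0.40 and 0 called. The median was -0.57 for the 7 genes and 0.011 over all genes. In CCK+ cells the sum of EEC markers was 99709 to 215910 in fasted and 247020 to 312940 in refed libraries.

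The other genes of the pathways were described from lists, to place the 7 genes, and their counts stand beside the 2.55% of all genes called with refeeding in CCK+ cells and the 1.23% in CCK- cells. Counts at an unadjusted p under 0.05 stand beside 3736 of all 22042 genes in CCK+ cells and 2635 in CCK- cells. Of 17 further enzymes, shuttles and transporters of gluconeogenesis, 1 was called with refeeding in CCK+ cells and 0 in CCK- cells (6 and 3 at an unadjusted p under 0.05, median log2 fold change -0.29 and -0.18). The 1 was Gpt, alanine aminotransferase, which supplies pyruvate from alanine, at 930, 1223 and 1138 normalized counts in fasted and 692, 580 and 537 in refed CCK+ libraries (log2 fold change -0.86, SE 0.173, limma adjusted p = 0.0187). In CCK- cells Gpt differed by -0.70 (adjusted p = 0.0709), with all refed libraries below all fasted ones. Of 8 further fructose and polyol genes, 0 were called in either population by limma (5 in CCK+ and 3 in CCK- cells at an unadjusted p under 0.05). Of 25 genes of glycolysis and its control, 1 was called lower in CCK+ cells and 1 in CCK- cells, a share near that of all genes. The median log2 fold change of the list was -0.03 and 0.06, and no enzyme of glycolysis itself was called. Both are kinases that restrain pyruvate dehydrogenase: Pdk2 (log2 fold change -1.22, limma adjusted p = 0.0215, in CCK+ cells) and Pdk4 (-1.64, adjusted p = 0.0188, in CCK- cells). Each of the 2 was lower in all refed than in all fasted libraries of the other population too (Pdk2 -0.89, adjusted p = 0.122; Pdk4 -1.18, adjusted p = 0.0581).

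Among 21 regulators of gluconeogenic transcription, 4 were called lower with refeeding in CCK+ cells and 2 in CCK- cells, and none was called higher. The median log2 fold change of the list was -0.40 and -0.22, and falls made up 1.23% and 0.526% of all genes. Klf15, a transcription factor induced by fasting in liver, stood at 38.2, 125 and 68.0 normalized counts in fasted and 5.75, 16.4 and 13.1 in refed CCK+ libraries. In CCK- cells it stood at 57.5, 151 and 102 in fasted and 7.68, 6.25 and 2.68 in refed libraries. Klf15 thus separated the states in both populations, like Pck1 (log2 fold change -2.56, limma adjusted p = 0.0265, and -3.98, adjusted p = 0.0028). Irs2, an adaptor of the insulin receptor, fell in both (-0.70, limma adjusted p = 0.0499, in CCK+ cells and -1.34, adjusted p = 0.00158, in CCK- cells). Insr, the insulin receptor (-0.96, limma adjusted p = 0.0191), and Stat3 (-0.67, adjusted p = 0.034) fell in CCK+ cells, and in CCK- cells they were at -0.63 (adjusted p = 0.156) and -0.10 (adjusted p = 0.887).

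The carbohydrate-responsive program was followed through a list of 16 genes. It holds Mlxipl (ChREBP, the sugar-responsive transcription factor), the related factors Mlx and Mlxip, and genes of sugar use and lipogenesis. Not all of the latter are established ChREBP targets. With refeeding 3 were called higher in CCK+ cells and 4 in CCK- cells, and none was called lower. The other 13 and 12 were not called, the median log2 fold change of the list was 0.06 and 0.26, and rises made up 1.31% and 0.708% of all genes. G6pc is itself a known ChREBP target in liver, as are lipogenic genes. Mlxipl stood at 2083, 2298 and 2254 normalized counts in fasted and 3512, 3632 and 3995 in refed CCK+ libraries, and rose 1.68-fold in CCK+ (limma adjusted p = 0.0107) and 1.76-fold in CCK- cells (adjusted p = 0.00783). Acly rose 2.05-fold in CCK+ and 1.90-fold in CCK- cells (limma adjusted p = 0.0139 and 0.0334), and Scd2 rose 3.43-fold and 4.04-fold (adjusted p = 0.0208 and 0.0175). Fasn, fatty acid synthase, rose 2.64-fold in CCK- cells (limma adjusted p = 0.0238) and differed by 1.53-fold in CCK+ cells (adjusted p = 0.267). Txnip, a further known target, was the 2nd most similar gene to G6pc across libraries and was not called with refeeding in either population. In CCK+ libraries it stood at 2197, 3218 and 2156 in fasted and 2758, 2446 and 2084 in refed mice, which overlap. In CCK- libraries it stood at 3612, 3581 and 2917 in fasted and 4301, 4115 and 3701 in refed mice. A link of G6pc to ChREBP was not tested.

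**Figure D4:**
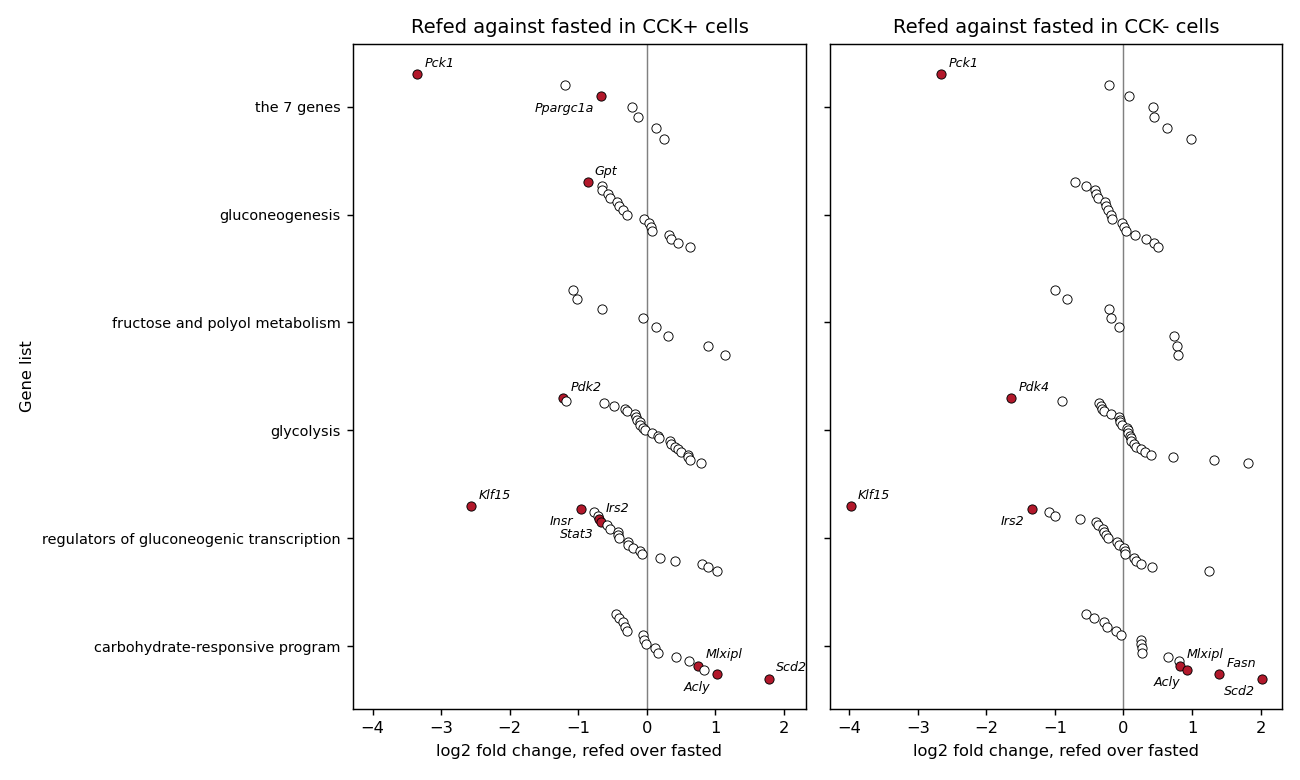
The log2 fold change of refed over fasted mice (horizontal axis) for every gene of the 7 and of the 5 pathway lists (vertical axis, genes of a list ordered by value) in CCK+ (left) and CCK- cells (right), with called genes filled and named. The called regulators lie to the left at -3.98 to -0.67, the called carbohydrate-responsive genes lie to the right at 0.75 to 2.02, and Pck1 lies far left in both panels.

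Between CCK+ and CCK- cells, where 19.6% of all genes were called higher and 14.1% lower, 10 of the 17 gluconeogenesis genes were lower in CCK+ cells and 1 was higher. Glycerol kinase Gk (log2 difference -1.52, limma adjusted p = 2.81e-07), Got1 (-1.33) and Mdh1 (-1.17) were lower. G6pc3, the ubiquitously expressed relative of G6pc, was higher (1.06, limma adjusted p = 0.000144), opposite to G6pc. Of the 8 fructose and polyol genes 5 were lower and 2 higher. Slc2a2, the basolateral hexose transporter GLUT2 (-2.06, limma adjusted p = 1.9e-06), and the aldehyde dehydrogenase Aldh1a1 (-1.33) were lower. Hexokinase Hk2 (2.24) and the aldose reductase Akr1b3 (1.87) were higher. Of the 25 genes of glycolysis and its control 12 were lower, Pfkp among them (-1.24), and 4 higher, among them Pfkm (2.04), Pdk3 (1.30) and Pfkl (1.17). Of 21 regulators 4 were lower, among them Tcf7l2 (-0.84) and Sirt1 (-0.69), and 3 higher, among them Nr4a1 (5.24) and Irs1 (4.94), and these 7 are a share near the 33.7% of all genes called. Of 16 carbohydrate-responsive genes 5 were lower, Me1 among them (-1.16), and 5 higher, among them Scd2 (2.07), Fasn (1.90) and Srebf1 (1.25). In the same comparison 6 of 6 immune markers were higher in CCK+ cells (median log2 difference 3.28). Of the 4 crypt markers 2 were called higher (median 0.84). The part of immune and crypt cells in the differences above was not tested.

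The profile of each gene over the 12 libraries was set against 7623 genes with a mean of at least 100 normalized counts, as a description, since the libraries share mice, populations and states. Pck1 was most like Vdr (Pearson r = 0.981), Cyp27a1 (0.981) and Vwa1 (0.98). G6pc was most like Cdr2 (0.97), Txnip (0.96) and Plbd1 (0.959), and Ppargc1a was most like Ctnnd1 (0.984), Lta4h (0.983) and Heph (0.983). Fbp1 was most like Stk24 (0.975), Ppp2r5c (0.944) and Cdkn2b (0.942), and Pcx was most like Apob (0.935), Acot12 (0.93) and Lrrtm2 (0.916). Khk was most like Gpi1 (0.98) and Micall2 (0.952), and Tkfc was most like Gabarap (0.927), F2rl1 (0.926) and the fructose transporter gene Slc2a5 (0.925). Among the 7 genes, r ran from 0.166 (with G6pc) to 0.649 (with Ppargc1a) for the pairs that hold Pck1, and from 0.601 to 0.933 for the other pairs. The highest were Fbp1 with Khk (0.933) and Khk with Tkfc (0.913).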

How the data were processed

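Bulk RNA-Seq of CCK+ and CCK- cells was analysed, and the droplet data were not used here. The signal values, normalized counts, are as deposited: the authors trimmed reads with Trim Galore 0.6.7, quantified them with Salmon 1.6.0 against the GRCm39 cDNA transcriptome (versions also per the submitters' processing notes), used tximeta to reach gene level, dropped genes with at most 1 count in total, and divided by DESeq2 normalization factors. Of the values above 0, 0.0% were whole (tolerance 1e-06), so depth in reads is unknown and no count model was used. Groups came from the cell type and treatment labels; the public titles name CCK+ cells for all 4 bulk groups, and the table's population names and Cck were used as the check. The labels say refed, whereas the methods say fed.

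All 22042 genes (2797 without a symbol) were tested on log2(normalized count + 1) with limma 3.58.1 in R 4.3.3, with 1 mean per group, a mean-variance trend and 8 residual degrees of freedom. Fold changes are on that scale. The script was tested on simulated data. Python 3.11.15, pandas 2.3.3, numpy 2.4.6 and matplotlib 3.10.9 were also used. The letter shared by a CCK+ and a CCK- library was taken as the mouse: deviations from group means correlated at 0.0773 to 0.124 for the 6 same-letter pairs and -0.0826 to -0.0184 for the 12 others. Deviations within a group sum to 0, so positive values for same-letter pairs push the others below 0, and the ranges are not independent. Named genes are the 7, list genes called with refeeding (up to 6 per list by size), up to 4 per list called between CCK+ and CCK- cells, and the 3 genes most like each of the 7. The 7 genes and the lists were chosen with earlier results of these data known. 2 genes of these lists are not reported here and were left out of the lists, their sums and the named genes. Alternatives were other pseudocounts (10 and 0.5), a filter at a mean of 10, rescaling to equal sums or upper quartiles, no trend, fits of 1 population or state, a mouse block and leaving out each library. Others were added after seeing the data, both libraries of mouse B left out and values relative to enterocyte markers.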

Additional observations from a re-analysis of the deposited data

Results flagged for a closer look

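The refed response differed between CCK+ and CCK- cells, by the interaction test, in a single gene, Gvin1, which is not among the 7 genes and was named after its value was seen. It was listed at 0 in all 3 fasted CCK- libraries and stood at 219, 196 and 159 normalized counts in the refed ones, against 107, 320 and 384 in fasted and 476, 468 and 499 in refed CCK+ libraries. The fitted difference of responses was -6.55 (log2, SE 0.541, limma adjusted p = 0.000161) and depends on the pseudocount because of the values at 0. The call was lost with a pseudocount of 10 and without mouse B. Gvin1 belongs to a family of closely similar genes among which estimated reads can be split.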

How the results depend on the processing

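Counts of called genes depended on the fit. Refed against fasted gave 561 calls in CCK+ and 272 in CCK- cells, 119 and 66 with no trend, 0 and 63 when the 6 libraries of a population were fitted alone, 127 and 85 without mouse B, and 103 to 876 and 79 to 268 with 1 library left out. In the limma fit of the CCK+ libraries alone, with 0 calls, 3190 genes had an unadjusted p under 0.05. CCK+ against CCK- gave 7431 calls, 4012 from fasted libraries alone, 7671 with the mouse as a replicate block and 6520 to 7618 with 1 library left out. The test of the difference in response gave 1 call (1378 genes at an unadjusted p under 0.05), 0 with a pseudocount of 10 (1490 unadjusted), 2 with no trend, 0 without mouse B (1335 unadjusted) and 1 to 6 with 1 library left out. The block changed no other call of the 7 genes than that of Tkfc. Rescaling to equal sums moved the median of all genes by 0.193 (refed, CCK+), 0.256 (CCK+ against CCK-) and 0.124 (difference in response), and the share of calls that were higher from 51.5 to 77.4% and from 58.2 to 84.1% in the first and second of these.

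Signs turned in values that were not called, and in the called difference of Khk between CCK+ and CCK- cells relative to enterocyte markers. With 1 library left out, refed against fasted in CCK+ cells ranged from -0.04 to 0.85 for G6pc, -0.31 to 0.56 for Fbp1, -0.44 to 0.06 for Khk and -0.36 to 0.30 for Tkfc, in CCK- cells from -0.08 to 0.91 for Fbp1 and -0.20 to 0.34 for Khk, and the difference in response of Fbp1 from -0.79 to 0.21. In CCK+ cells Khk and Tkfc were at 0.02 and 0.11 with equal sums, 0.06 and 0.30 without mouse B, and 0.29 and 0.38 relative to enterocyte markers. On that last scale the difference in response was 0.08 for Fbp1 and 0.09 for Khk, and CCK+ against CCK- was 0.26 for Khk and 0.45 for Tkfc. With equal sums, the falls of Ppargc1a with refeeding in CCK+ cells (-0.44, adjusted p = 0.0808) and of Khk in CCK+ against CCK- cells (-0.43, adjusted p = 0.0927) were not called, nor was that of Ppargc1a with no trend (adjusted p = 0.149) or in the CCK+ libraries alone (0.18). Tkfc was called in CCK+ against CCK- cells with a filter on low values (adjusted p = 0.0451), without mouse B (0.00679), without the CCK+ library of mouse B (0.0109) and without the CCK- library of mouse F (0.0409). The causes were not tested. There are 3 mice a group and the depth in reads is unknown, and the intervals of Fbp1, Khk and Tkfc with refeeding span both directions.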
